A study of Homo sapiens with 15 samples.

Results

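ADRA2A, CXCR4 and NMUR2 are 3 G protein-coupled receptor genes whose mRNA was lower in cells expressing each of 3 SOX9 mutants than in cells expressing wild-type SOX9. They are 3 of the 60671 genes counted, and 3 of the 104 receptor genes with enough reads to be tested. They were chosen from measured values: among those receptors, these were the ones called lower, at an adjusted p under 0.05, in all 3 comparisons of a mutant with wild-type SOX9. Their differences from wild-type SOX9 are therefore given as a description and carry no test.

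The cells were HT115, an established human colorectal cancer line, in which doxycycline switched on an introduced protein. All 5 groups received 0.5 µg/ml doxycycline for 24 h, and each has 3 libraries of poly(A)-selected RNA. The group GFP expressed the green fluorescent protein as the control, SOX9_WT expressed V5-tagged wild-type SOX9, and M228, M303 and M379 each expressed a V5-tagged mutant SOX9. M303 is a truncated SOX9 according to the series text; for M228 and M379 the sources used here name no change. The series text speaks of duplicates where the sample labels give 3 libraries a group. Whether those 3 were cultured separately is not labelled, and the p-values below then reflect only how far these libraries spread, which may be technical. All groups retain the SOX9 gene of the cells themselves. A count for SOX9 adds its mRNA to those reads of the construct that align to the gene. Levels are in CPM, the read count scaled by library size (here with TMM factors). SOX9 mRNA stood at 119 ± 33.9 CPM in GFP, 213 ± 28.6 in SOX9_WT, 2105 ± 250 in M228, 3009 ± 51.6 in M303 and 2215 ± 158 in M379 (SD, n = 3 each). SOX9 itself was 1.79-fold higher in SOX9_WT than in GFP, which did not pass the test (adjusted p = 0.110 from edgeR). The counted amount of SOX9 mRNA thus differed between SOX9_WT and the mutants along with the protein encoded. For the receptors the contributions of amount and protein cannot be told apart. Whether reads of the SOX9_WT construct, labelled CSOX9, were counted as fully as those of the mutants was not tested.

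G protein-coupled receptors cross the cell membrane and pass the binding of a ligand outside the cell on to heterotrimeric G proteins inside it. ADRA2A is a receptor for adrenaline and noradrenaline that acts through the inhibitory G proteins and lowers cyclic AMP. CXCR4 binds the chemokine CXCL12, also acts through inhibitory G proteins, guides the migration of leukocytes and progenitor cells, and is made by many carcinomas. NMUR2 is a receptor for the neuropeptides neuromedin U and neuromedin S and raises intracellular calcium. SOX9 is an HMG-box transcription factor of the stem and progenitor cells of the intestinal crypt.

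The sequence before each receptor's start site is shown because the 3 genes were chosen for a shared pattern of mRNA, and the letters allow their promoters to be compared. The windows are from RefSeq (GRCh38.p14), and all 3 genes had an entry. Each is printed 5′ to 3′ on the strand of its gene and holds the 250 bases before the start site. They lie at chr10:111076779-111077028 (plus strand) for ADRA2A, chr2:136118150-136118399 (minus strand) for CXCR4, and chr5:152405280-152405529 (minus strand) for NMUR2. For CXCR4 the table holds 3 windows, and the one with the outermost start site is shown. Capitals mark every match, on either strand, to TATAAA (the TATA box), CCAAT (the CCAAT box) and CTTTG (the core read by TCF and LEF factors).
ADRA2A: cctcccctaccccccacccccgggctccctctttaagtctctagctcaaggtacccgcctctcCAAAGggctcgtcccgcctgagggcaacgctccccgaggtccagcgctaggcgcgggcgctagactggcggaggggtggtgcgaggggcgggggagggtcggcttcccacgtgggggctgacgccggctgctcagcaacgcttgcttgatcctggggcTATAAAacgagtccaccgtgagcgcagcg
CXCR4: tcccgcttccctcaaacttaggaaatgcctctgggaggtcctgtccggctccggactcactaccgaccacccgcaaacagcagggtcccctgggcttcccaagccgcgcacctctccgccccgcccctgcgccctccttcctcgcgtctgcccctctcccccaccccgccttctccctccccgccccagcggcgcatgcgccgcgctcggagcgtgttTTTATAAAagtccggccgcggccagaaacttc
NMUR2: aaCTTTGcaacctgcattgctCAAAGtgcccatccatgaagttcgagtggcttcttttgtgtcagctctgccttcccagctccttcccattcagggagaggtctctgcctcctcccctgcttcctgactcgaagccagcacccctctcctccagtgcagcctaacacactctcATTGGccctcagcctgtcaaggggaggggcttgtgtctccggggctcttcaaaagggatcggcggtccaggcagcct

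The search covered these bases and the 50 that follow the start site, 300 in all. ACAAT, 1 form of the core of SOX binding sequences, was searched on both strands as well. It had 0 matches in the 3 windows, where 27.4% of all 35116 windows of this length hold at least 1. Other forms of that core were not searched as SOX sequences. Both ADRA2A and CXCR4 have TATAAA, which 11.5% of all windows hold, beginning 29 bases before the start site in ADRA2A. In CXCR4 TATAAA and its reverse complement overlap there, the first beginning 32 bases before the start site. NMUR2 has no TATAAA in its window and holds CCAAT once, as its reverse complement, against 34.6% of all windows. CTTTG was found in all 3 windows, against 47.5% of all windows, with 2 matches in that of NMUR2; the match of CXCR4 lies 26 bases past the start site, outside the stretch printed. GC content was 69.3% for ADRA2A, 66.7% for CXCR4 and 57.3% for NMUR2, with a median of 58.7% over all windows. A match of this kind is a description of letters, and a window without a match says nothing of where a factor binds.

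The 3 genes lie on different chromosomes. In the annotation used for counting (GRCh38), ADRA2A (ENSG00000150594) occupies chromosome 10 from 111077029 to 111080907 on the plus strand as 1 exon of 3879 bases. CXCR4 (ENSG00000121966) lies on chromosome 2 from 136114349 to 136118149 on the minus strand, with 3 exon blocks that sum to 2208 bases. NMUR2 (ENSG00000132911) lies on chromosome 5 from 152391546 to 152433368 on the minus strand, with 6 exon blocks of 2331 bases in all, 2 of which lie before the RefSeq start site used for the window above. None of the 3 shares exon bases with another annotated gene, so reads counted without regard to strand cannot have come from an annotated gene on the other strand.

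ADRA2A mRNA was highest in SOX9_WT, and among the mutants its mean was lowest in M228 and highest in M379. The 3 SOX9_WT libraries held 44.9, 45.2 and 36.0 CPM. The M228 libraries held 12.7, 9.60 and 10.7 CPM, and the M303 libraries 13.6, 14.7 and 14.8 CPM. In M379 the values were 21.3, 20.7 and 21.9 CPM. Every mutant library thus lay below every SOX9_WT library, and the 3 mutants formed separate bands with no overlap. The GFP libraries, at 20.1, 32.2 and 29.7 CPM, spread across a wider range than any mutant group and overlapped only M379. The counts behind these values ran from 66 reads in GFP replicate 1, the shallowest library, to 924 reads in SOX9_WT replicate 1. In group means ADRA2A stood at 42.0 ± 5.23 CPM in SOX9_WT, 27.3 ± 6.41 in GFP, 21.3 ± 0.577 in M379, 14.4 ± 0.654 in M303 and 11.01 ± 1.56 in M228 (SD, n = 3 each).

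CXCR4 stood apart in SOX9_WT, with all other groups close together. Its SOX9_WT libraries held 8.02, 6.92 and 6.21 CPM. The M228 libraries held 1.86, 2.26 and 2.32 CPM, those of M303 1.70, 2.35 and 1.99 CPM, and those of M379 2.75, 2.73 and 2.44 CPM. Among the mutants, M228 and M303 overlapped, while all 3 M379 libraries lay above both. GFP libraries held 1.82, 3.92 and 3.12 CPM, so the control overlapped each mutant group and remained below SOX9_WT. These are small counts, from 6 reads in GFP replicate 1, whose exact 95% Poisson interval runs from 0.670 to 3.97 CPM, to 165 reads in SOX9_WT replicate 1. Such intervals cover counting error only. Group means were 7.05 ± 0.915 CPM in SOX9_WT, 2.95 ± 1.06 in GFP, 2.64 ± 0.175 in M379, 2.14 ± 0.250 in M228 and 2.01 ± 0.324 in M303 (SD, n = 3 each).

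NMUR2 varied least between groups. The SOX9_WT libraries held 54.2, 63.8 and 57.8 CPM. Those of M228 held 29.3, 32.9 and 32.3 CPM, those of M303 34.2, 33.8 and 34.9 CPM, and those of M379 40.2, 36.4 and 37.6 CPM. As for ADRA2A, the mutants followed the order M228, M303, M379 without overlap, all of them below SOX9_WT. The GFP libraries, at 40.4, 37.9 and 41.1 CPM, overlapped M379 and lay above the other two mutants. The group means were 58.6 ± 4.83 CPM in SOX9_WT, 39.8 ± 1.69 in GFP, 38.07 ± 1.95 in M379, 34.3 ± 0.554 in M303 and 31.5 ± 1.94 in M228 (SD, n = 3 each), from counts of 133 to 1145 reads.

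**Figure D1:**
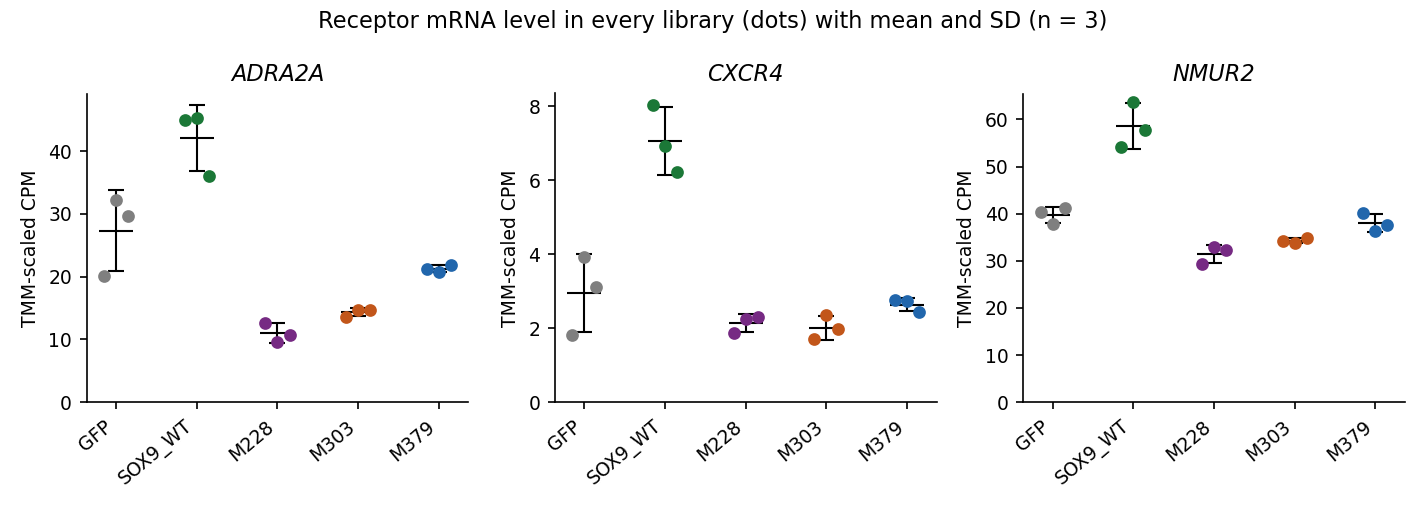
Level of ADRA2A, CXCR4 and NMUR2 in each of the 15 libraries, in TMM-scaled CPM on a linear axis from 0; dots are libraries, the long bar is the group mean and the whiskers are the SD (n = 3). All SOX9_WT dots lie above all mutant dots in each panel, with the mutants of ADRA2A in 3 separate bands at means of 11.01, 14.4 and 21.3 CPM.

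The distance to wild-type SOX9, on which the choice of these genes rests, was widest for ADRA2A in M228 and narrowest for NMUR2 in M379. Fitted with edgeR, ADRA2A in M228, M303 and M379 was at 26.3%, 34.1% and 50.6% of its SOX9_WT level, log2 fold changes of -1.92 ± 0.17, -1.55 ± 0.16 and -0.98 ± 0.16 (estimate ± SE). CXCR4 was at 30.2%, 28.4% and 37.3%, or -1.73 ± 0.23, -1.82 ± 0.22 and -1.42 ± 0.22. NMUR2 was at 53.7%, 58.5% and 65.0%, or -0.90 ± 0.11, -0.77 ± 0.11 and -0.62 ± 0.11. The distance was smallest in M379 for each of the 3 receptors. Over all 16160 tested genes, 0.569% were called in M228 against SOX9_WT (0.285% lower), 0.384% in M303 (0.173% lower) and 0.124% in M379 (0.0619% lower). Those called lower in all 3 made up 0.0495%, or 8 genes. Genes with every mutant library below every SOX9_WT library made up 2.93%. Since these comparisons chose the members, nothing is read from the members' place among those shares.

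On either side of the threshold, the values were as follows. Inside it, the largest of the 3 adjusted p-values from edgeR was 0.0272 for CXCR4, 0.0346 for ADRA2A and 0.0412 for NMUR2, in each case that of M379. Outside the threshold, the nearest receptor by the same measure that was lower in all 3 mutants was DRD2, a dopamine receptor, at 0.407, followed by HTR1D, a serotonin receptor, at 0.606.

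Differences between the mutants played no part in the choice as such, although they use the same mutant libraries, and they were tested in the fit across all genes. ADRA2A was 1.92-fold higher in M379 than in M228, a log2 fold change of 0.94 ± 0.17 (95% interval 0.59 to 1.30), with an adjusted p of 0.0862 from edgeR. With the replicate number as a block in the fit, which the correlation of equally numbered libraries supports for comparisons between mutants, the value was 0.93 ± 0.16 with an adjusted p of 0.0433 from edgeR. The call thus depended on the setting, while all 3 libraries of M379 lay above all 3 of M228 in either case. ADRA2A was higher in M379 than in M303 by 0.57 ± 0.16 and higher in M303 than in M228 by 0.37 ± 0.17, both with adjusted p-values of 1.00 from edgeR.

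For CXCR4 and NMUR2 the differences between mutants did not pass the test, with adjusted p-values of 1.00 from edgeR throughout. CXCR4 differed by 0.30 ± 0.24 between M379 and M228 (95% interval -0.20 to 0.81), by 0.39 ± 0.22 between M379 and M303 (-0.086 to 0.87), and by -0.088 ± 0.24 between M303 and M228 (-0.59 to 0.41). The last of these had no stable sign, being 0.028 without M303 replicate 1. NMUR2 differed by 0.27 ± 0.11 between M379 and M228 (0.042 to 0.51), by 0.15 ± 0.11 between M379 and M303 (-0.078 to 0.38), and by 0.12 ± 0.11 between M303 and M228 (-0.11 to 0.35). The intervals leave room for log2 differences of up to 0.87 for CXCR4 and 0.51 for NMUR2.

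Few genes were called between mutants by edgeR: 0.0433% of tested genes between M379 and M228 and 0.0124% between M303 and M228. Between M379 and M303 edgeR and DESeq2 each called 0 genes. In these comparisons, in the same order, 560, 430 and 137 of 16160 genes had an unadjusted p under 0.05 from edgeR. Each count lies below a share of 0.05, which genes without any difference would give on average. The fit without the replicate block was thus cautious between mutants, and the cause was not tested. A gene not called is therefore not shown to be equal between mutants. Separation of the libraries alone was commoner than a call. All 3 members had non-overlapping libraries between M379 and M228, as had 11.5% of tested genes, and between M379 and M303, as had 4.87%. ADRA2A and NMUR2 were also separate between M303 and M228, as were 8.74% of tested genes. The full order, with all M228 libraries below all of M303 and all of M303 below all of M379, held for ADRA2A and NMUR2 and for 0.223% of tested genes. Only this order, that of the members, was counted, and the larger share with any such order is not given.

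Against the GFP control, the 3 receptors were higher in SOX9_WT and lower than it, or overlapping it, in the mutants. These comparisons share libraries with those that chose the members, so their values are given without a test. In SOX9_WT, CXCR4 was 2.23-fold (log2 1.16 ± 0.23), ADRA2A 1.51-fold (0.60 ± 0.16) and NMUR2 1.47-fold (0.56 ± 0.11) its GFP level. All SOX9_WT libraries lay above all GFP libraries for each of the 3, where 11.8% of tested genes had non-overlapping libraries in either direction.

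ADRA2A in the mutants was at 39.8% of its GFP level in M228, 51.6% in M303 and 76.5% in M379, or log2 -1.33 ± 0.17, -0.95 ± 0.16 and -0.39 ± 0.16. The libraries of M228 and of M303 all lay below those of GFP, and those of M379 overlapped them. NMUR2 had the same arrangement at smaller distances, at 79.1%, 86.1% and 95.7% of GFP, or -0.34 ± 0.11, -0.22 ± 0.11 and -0.064 ± 0.11. Non-overlapping libraries were found for 9.54% of tested genes between M228 and GFP, 9.36% between M303 and GFP, and 8.74% between M379 and GFP. Genes with all SOX9_WT libraries above GFP and all M228 libraries below it made up 0.13%, and with M303 in place of M228 0.0681%; the choice of members bears on both.

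CXCR4 in the mutants overlapped GFP in every case, at 67.4%, 63.4% and 83.3% of its level in M228, M303 and M379, or -0.57 ± 0.25, -0.66 ± 0.23 and -0.26 ± 0.24. GFP replicate 1, with 3054755 reads, was the lowest GFP library for ADRA2A and CXCR4, and GFP replicate 2 the highest. Without GFP replicate 2 the M379 value of CXCR4 was -0.061, and those of M228 and M303 were -0.36 and -0.46. Without GFP replicate 1 the values of CXCR4 were -0.41 in M379, -0.71 in M228 and -0.81 in M303. For ADRA2A the log2 fold change of SOX9_WT against GFP was 0.44 without GFP replicate 1 and 0.71 without GFP replicate 2.

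**Figure D2:**
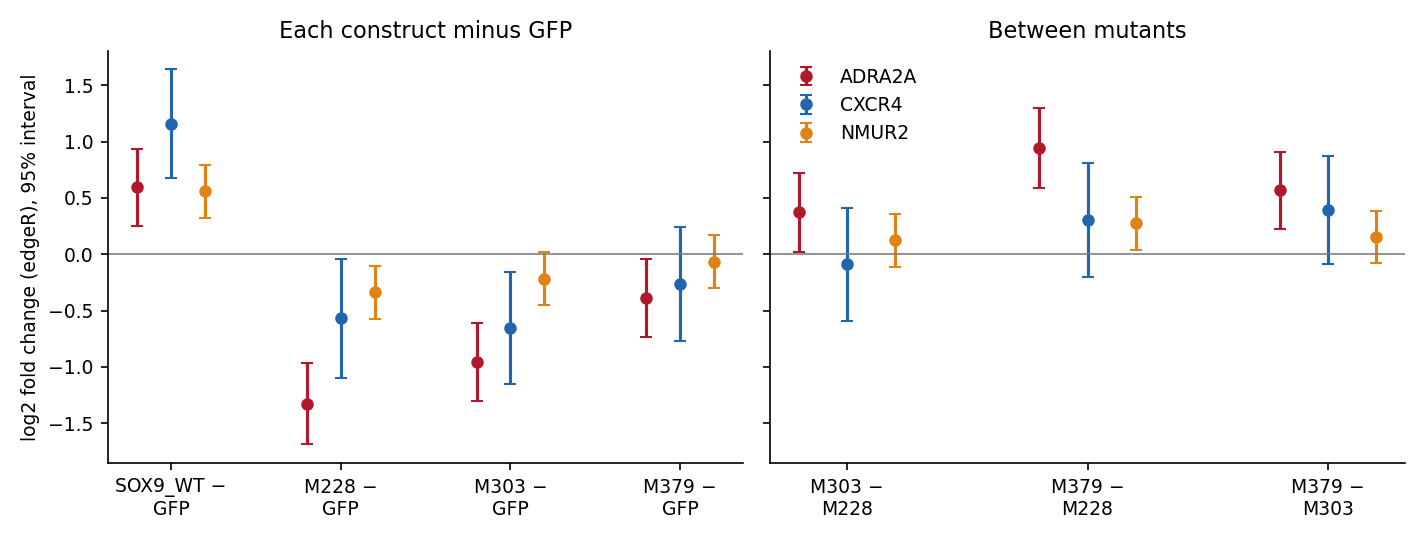
Log2 fold changes of the 3 receptors from the edgeR fit, each construct minus GFP on the left and between mutants on the right; points are estimates and bars are 95% intervals. The SOX9_WT points lie above 0 for all 3 receptors, from 0.56 to 1.16, and the largest difference between mutants is that of ADRA2A in M379 minus M228, at 0.94.

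In RPKM, which scales reads by exon length as well as library size, the levels of the 3 receptors can be compared with each other and with the other receptors. NMUR2 stood at 25.1 RPKM in SOX9_WT and between 13.5 and 17.1 RPKM in the other groups, rank 6 or 7 of 104 tested receptors in every group. ADRA2A stood at 10.8 RPKM in SOX9_WT, rank 13. In M228, M303 and M379 it was at 2.84, 3.70 and 5.49 RPKM, ranks 35, 30 and 26. CXCR4 stood at 3.19 RPKM in SOX9_WT, rank 34, and at 0.971, 0.912 and 1.195 RPKM in M228, M303 and M379, ranks 54, 59 and 50.

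**Figure D3:**
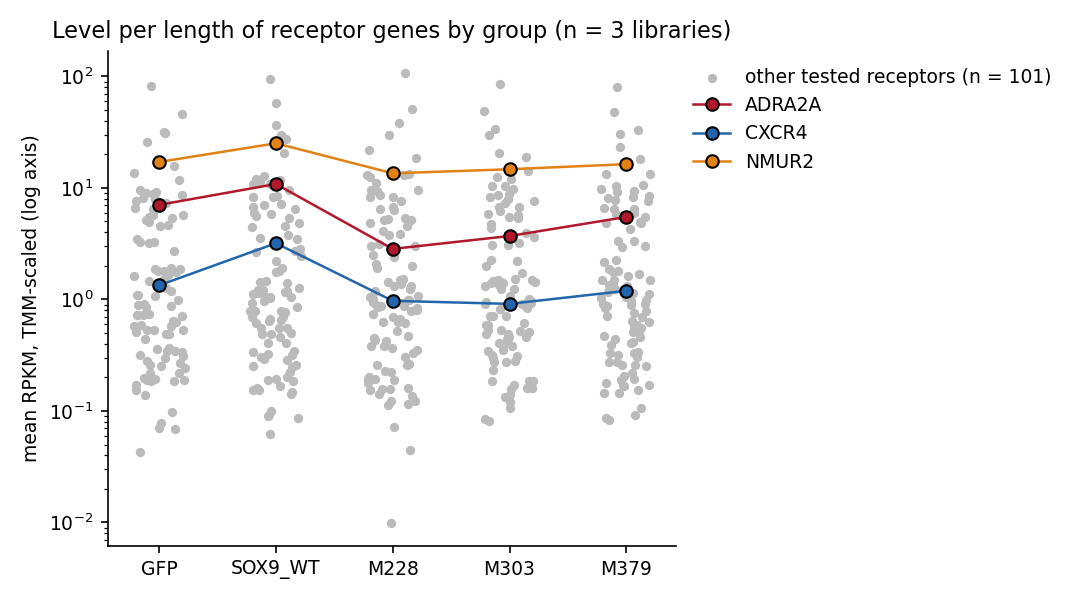
Mean level per length (RPKM, log axis) of the 104 tested receptor genes in each group (n = 3 libraries); grey dots are the 101 other receptors and coloured dots joined by lines are ADRA2A, CXCR4 and NMUR2. NMUR2 runs near the top in all 5 groups, between 13.5 and 25.1 RPKM, and CXCR4 lies between 0.912 and 3.19 RPKM.

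The 101 other tested receptors, of 351 listed, centred near their SOX9_WT levels. For M228, M303 and M379 their median log2 fold changes against SOX9_WT were 0.016, -0.024 and -0.028, beside 0.010, 0.0096 and 0.0044 over all tested genes. With the members included, 34 of 104 receptors had estimates below 0 in all 3 mutants. The 3 comparisons share the SOX9_WT libraries, and the same share over all tested genes was not counted. Nothing about receptors is therefore read from that count. From the lowest fold change upwards, ADRA2A ranked 3 of 104 in each mutant, CXCR4 4, 2 and 2 in M228, M303 and M379, and NMUR2 9, 7 and 8. The members were chosen on these same fold changes, so nothing is read from their ranks.

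Of these 101 other receptors 2 were called in M228 and 2 in M303 against SOX9_WT, beside 0.569% and 0.384% of all tested genes. GPR55, a receptor for lysophospholipids, fell in M228 to 3.81 ± 0.667 CPM from 7.46 ± 1.15 CPM in SOX9_WT (log2 -0.98 ± 0.19, adjusted p = 0.0291 from edgeR). An antisense gene overlaps 14.5% of its exon bases, which makes its value less certain. ADGRF4, an adhesion receptor, rose in M228 to 8.50 ± 0.219 from 3.98 ± 0.332 CPM (1.09 ± 0.20, adjusted p = 0.0177 from edgeR). In M303, LPAR1, a receptor for lysophosphatidic acid, rose to 5.20 ± 0.518 from 2.32 ± 0.296 CPM (1.16 ± 0.24, adjusted p = 0.0470 from edgeR). DRD2 fell in M303 to 0.347 ± 0.141 from 2.01 ± 1.71 CPM (-2.56 ± 0.52, adjusted p = 0.0444 from edgeR), with SOX9_WT libraries at 3.94, 1.42 and 0.669 CPM from 81, 21 and 7 reads. None of these 4 calls recurred in another mutant, which is no test of a difference between mutants. All 4 estimates kept their sign in the other 2 mutants, in comparisons that share the SOX9_WT libraries. In M228 and M379 they were -2.03 and -1.83 for DRD2, and 0.92 and 0.67 for LPAR1. In M303 and M379 they were -0.54 and -0.25 for GPR55, and 0.77 and 0.46 for ADGRF4.

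**Figure D4:**
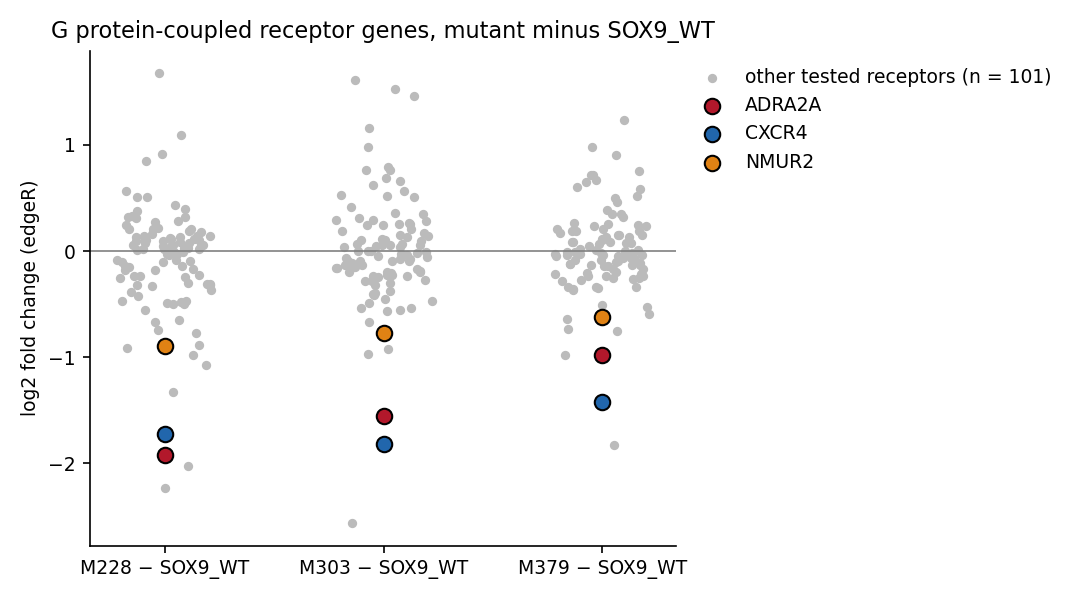
Log2 fold change of each tested receptor gene in M228, M303 and M379 minus SOX9_WT (edgeR estimates); grey dots are the 101 other receptors and coloured dots the 3 members, which were chosen for being low here. The grey dots centre near 0, with medians of 0.016, -0.024 and -0.028, and the members lie between -0.62 and -1.92.

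ADRA2C, a relative of ADRA2A that also acts through inhibitory G proteins, stood at 2.64 ± 0.387 CPM in SOX9_WT, ADRA2B at 0.689 ± 0.121 CPM and ADRB1 at 0.920 ± 0.512 CPM. None of these was called against SOX9_WT or GFP, and ADRA2C had log2 fold changes against SOX9_WT of -0.23 ± 0.24 in M228, 0.25 ± 0.22 in M303 and 0.13 ± 0.23 in M379. Of 22 other chemokine receptors 4 were tested, each with estimates above 0 in all 3 mutants and none called. The 3 comparisons share the SOX9_WT libraries, and the same share over all tested genes was not counted. One of them, CCRL2, named after its values were seen, stood at 2.82 RPKM in SOX9_WT and 2.94 to 3.26 RPKM in the other groups, where it lay above CXCR4. The largest estimates among them, picked out after the values were seen, were those of CCR9, at 1.68, 1.62 and 0.98. CCR9 was close to the floor, at 0.191 RPKM in SOX9_WT and 306 reads over all 15 libraries. Of 7 relatives of NMUR2, only 2 passed the filter, and NMUR1, the other neuromedin receptor, had 0 reads in all 15 libraries. For any gene, the limit that 0 reads allow, taken as 3 reads, was 0.0896 CPM for the library with most reads and 0.912 CPM for that with fewest.

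CXCL12, the ligand of CXCR4, and ACKR3, a scavenger receptor for the same chemokine, each had 1 read in 1 M303 library and 0 in the other 14. Neuromedin S (NMS) had 0 reads in all libraries. NMU, which encodes neuromedin U, was expressed at 13.7 ± 3.51 CPM in GFP, 10.2 ± 0.608 in SOX9_WT, 17.6 ± 4.93 in M228, 12.9 ± 2.58 in M303 and 10.5 ± 1.19 in M379 (SD, n = 3 each). The M228 libraries held 20.2, 20.6 and 11.9 CPM of NMU, and the SOX9_WT libraries 10.1, 9.70 and 10.9 CPM. The difference of 0.77 ± 0.23 did not pass the test, with an adjusted p of 0.234 from edgeR. NMU and NMUR2 were thus both expressed in every group, as ligand and receptor. For ADRA2A, whose ligands are made from tyrosine in several enzyme steps, DBH, the enzyme that makes noradrenaline, had 3 reads in the 15 libraries together and PNMT, which makes adrenaline, had 54. TH and DDC, the enzymes of the first steps, were tested and not called in any contrast by edgeR without the replicate block.

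Downstream of the receptors, the lists held G protein subunits (20 tested of 28), receptor kinases, arrestins and RGS proteins (17 of 24), and effectors of cyclic AMP and calcium (30 of 37). Their median log2 fold changes against SOX9_WT lay between 0.0013 and 0.12. RGS2, which shortens the signal of the calcium-raising G proteins, was the only gene of these lists called by edgeR. It rose in M228 to 73.9 ± 21.9 CPM, from libraries at 55.1, 98.0 and 68.6 CPM, against 26.5 ± 1.47 CPM in SOX9_WT (log2 1.47 ± 0.24, adjusted p = 0.0108 from edgeR). Its level was 41.1 ± 7.75 CPM in M303, 37.3 ± 7.68 in M379 and 35.2 ± 11.6 in GFP.

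Over all lists, receptors and signalling genes together, 3 of 171 tested genes were called in M228 and 2 in M303 against SOX9_WT. The shares called against SOX9_WT over all tested genes were 0.569% in M228, 0.384% in M303 and 0.124% in M379. In M379 0 of 171 were called by edgeR, with 14 at an unadjusted p under 0.05 and 1 called by DESeq2. Over all tested genes, the share called against GFP was 0.0309% in SOX9_WT, 0.241% in M228, 0.118% in M303 and 0.0371% in M379. Of the list genes 0 were called against GFP by edgeR, with 14 to 26 at an unadjusted p under 0.05 and up to 4 called by DESeq2, in M228. Between mutants 0 were called by edgeR or DESeq2, with 2 to 12 at an unadjusted p under 0.05. With the replicate block edgeR called 3 list genes for M228 against GFP, 1 for M303 against M228 and 1 for M379 against M228. Leaving out any 1 library of the groups compared left 0 or 1 of the calls in M228 and 0 or 1 of those in M303, so at least 2 of the 3 calls and 1 of the 2 calls were lost in every such fit.

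Across the 15 libraries the 3 members followed each other, with Pearson correlations of log2 CPM of 0.865 for ADRA2A and CXCR4, 0.884 for ADRA2A and NMUR2 and 0.889 for CXCR4 and NMUR2. The libraries share the group structure on which the choice was made. Once group means were removed the correlations were 0.684, -0.290 and -0.135, with NMUR2 at negative values against both others within groups. Among 12325 genes compared, TCF7 was among the 3 most alike for every member, at 0.906 for ADRA2A, 0.955 for CXCR4 and 0.927 for NMUR2. TCF7, a TCF and LEF factor of the Wnt pathway, stood at 49.4 CPM in GFP, 65.9 in SOX9_WT, 42.2 in M228, 41.1 in M303 and 48.3 in M379. The other genes most alike were BTNL9 (0.934) and TGFBI (0.904) for ADRA2A, NEU4 (0.896) and GAS7 (0.892) for CXCR4, and CXCR4 itself and NT5DC3 (0.888) for NMUR2. NEU4 shares 16.2% of its exon bases with an antisense gene. These correlations describe the 15 libraries and carry no test.

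Neighbouring genes were the nearest on each side among tested genes with a symbol, so untested genes in between were passed over. None of the 5 named here was called against SOX9_WT. Next to ADRA2A lie SHOC2 at 63.4 kb, with log2 fold changes of 0.056, 0.045 and -0.057 in M228, M303 and M379, and GPAM at 1069 kb. Next to CXCR4 lies HNRNPKP2 at 81.0 kb, with 0.072, 0.21 and -0.14. Next to NMUR2 lie G3BP1 at 579 kb, with -0.079, -0.086 and -0.087, and FAM114A2 at 1557 kb. GPAM had -0.078, -0.11 and -0.13, and FAM114A2 had 0.0064, -0.15 and -0.16.

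Library totals ran from 3054755 to 31704249 reads, and no pair of libraries of a group agreed within sampling noise. The cells matched their label: 11 of 11 markers of colonic epithelium had a mean over the 15 libraries at or above 1 CPM. CXCR4 is also a leukocyte gene and NMUR2 a gene of neural cells, so markers of such cells were measured. Of 7 leukocyte markers 0 had a mean of 1 CPM, with summed levels of 0.950 to 1.05 CPM in SOX9_WT and 0.706 to 1.97 CPM in the mutants. CD3E, a T cell gene, was at 0 in all 15 libraries, and PTPRC, which encodes CD45, had at most 2 reads and was at 0 in 9. Of 6 enteroendocrine and neural markers 0 had a mean of 1 CPM, although TUBB3, TPH1 and SYP reached 1.30, 1.17 and 1.13 CPM in their highest library, with sums of 1.91 to 3.12 CPM in SOX9_WT and 1.76 to 3.70 CPM in the mutants. In bulk RNA, fewer cells that make a receptor and less of its mRNA per cell cannot be told apart.

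The distances to wild-type SOX9 kept their direction under every other way of processing that was run. The members were chosen for lying below SOX9_WT, and no mutant library overlapped that group. A change of sign was therefore unlikely from the outset, and its absence is no support for the differences. With any 1 library left out, the log2 fold change of ADRA2A lay between -2.04 and -1.85 in M228, between -1.65 and -1.50 in M303 and between -1.08 and -0.93 in M379. Those of CXCR4 lay between -1.94 and -1.32 and those of NMUR2 between -0.95 and -0.56 over the 3 mutants.

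**Figure D5:**
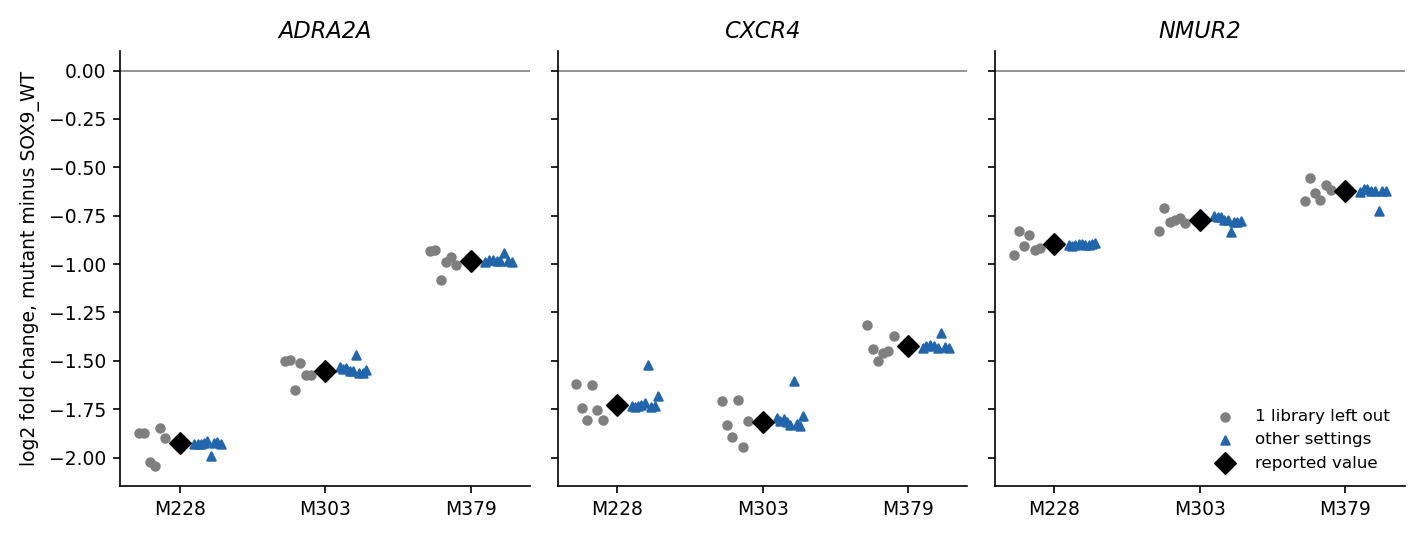
Log2 fold changes of the 3 receptors against SOX9_WT as reported (diamonds), with 1 library left out (grey dots) and under other settings of the fit (blue triangles). All points lie below 0, which the choice of the members made likely. The triangles set apart for CXCR4, at -1.52 in M228 and -1.60 in M303, come from libraries 2 and 3 only.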

How the data were processed

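RNA was sequenced as 150-base read pairs, per the labels' protocols. STAR 2.7.0a and hg38 are named in the submitters' processing notes. The deposited gene counts, which were not normalized, came from featureCounts 2.0.1 with Ensembl annotation 101, per the file headers. Its command line has neither a strand nor a paired-end option, so read ends of both strands were counted singly. In the authors' second table, of normalized signal, each value is the count over 1 factor per library (relative tolerance 1e-04); 3 of its columns match no sample and were not used.

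In R 4.3.3, edgeR 4.0.16 (filterByExpr, TMM scaling, quasi-likelihood fit with a mean per group over 15 libraries, 10 residual degrees of freedom) tested 16160 genes, two-sided, with Benjamini-Hochberg adjustment within each of 10 contrasts and a threshold of 0.05. CPM are TMM-scaled. DESeq2 1.42.0, limma 3.58.1 on log2 (normalized value + 1), other scalings and filters, a replicate block and left-out libraries were alternatives. Of these fits only the edgeR fit described first was tested beforehand on simulated counts, for the contrast of M228 with SOX9_WT alone. Sequences and motifs were read from RefSeq windows.

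Members and lists were chosen with earlier results of these data known. Named genes are the members, SOX9, their main ligands and relatives, every list gene called in any contrast, and the 3 genes per member with the highest Pearson correlation at a mean log2 CPM of at least 1. Equal replicate numbers were taken to pair libraries where every pair's deviations from group means correlated above 0.1. This held between mutants and for mutants against GFP (lowest 0.156). In contrasts with SOX9_WT it did not hold. The lowest correlation there was -0.018 for GFP, and 0.051, 0.096 and 0.065 for M228, M303 and M379. Replicate 1 had the highest TMM factor of each group, SOX9_WT included, so a weaker pairing with SOX9_WT remains possible. No label gives a shared day or batch. Some relatives and neighbours are not reported here.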

Additional observations from a re-analysis of the deposited data

Results flagged for a closer look

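Each of the 4 values here drew attention because wild-type SOX9 and a mutant lay on opposite sides of the GFP control: all 3 SOX9_WT libraries were above every GFP library and all 3 mutant libraries were below every GFP library. For ADRA2A this held in M228, with a log2 fold change against GFP of -1.33, and in M303, with -0.95, where SOX9_WT had 0.60. For NMUR2 it held in M228, with -0.34, and in M303, with -0.22, where SOX9_WT had 0.56. Over all tested genes, 0.13% had SOX9_WT above and M228 below GFP in this way, and 0.0681% had SOX9_WT above and M303 below. The difference between the 2 directions was not tested, since these genes were chosen for being lower in the mutants than in SOX9_WT. The ADRA2A values of M379, and all CXCR4 values of the mutants, overlapped the GFP libraries.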

How the results depend on the processing

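The members' fold changes against SOX9_WT kept their sign in every alternative, which the choice of the members made likely. With libraries 2 and 3 only, CXCR4 moved to -1.52 in M228 and -1.60 in M303, and NMUR2 to -0.73 in M379. ADRA2A between M379 and M228 passed the threshold with the replicate block (0.93, adjusted p 0.0433 from edgeR), with no filter on low counts (0.94, adjusted p 0.00282) and with DESeq2 (0.93, adjusted p 0.000204), and in none of the 6 fits with 1 library left out (0.86 to 1.06, adjusted p 0.116 to 0.540 from edgeR). CXCR4 between M303 and M228 turned to 0.028 without M303 replicate 1 (range -0.22 to 0.028). The replicate block changed no other member call between mutants. The cause was not tested.

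Counts of called list genes depended on the setting. With no filter on low counts they were 7, 8 and 2 in M228, M303 and M379 against SOX9_WT, 5 and 3 in M228 and M303 against GFP, 2 for M303 against M228 and 1 for M379 against M228. The replicate block gave 5, 8 and 3 against SOX9_WT, 3 for M228 against GFP, and 1 each for M303 and M379 against M228. In M303 against SOX9_WT the count was 0 with total-count scaling, upper-quartile scaling, libraries 2 and 3 only, and limma; libraries 2 and 3 only gave 1 in M228. Only the 2 groups in the fit gave 2 in M379, and DESeq2 gave 1 in M379 against SOX9_WT, 4 in M228 and 1 in M379 against GFP. With 1 library left out the counts were 0 to 1 in M228 and in M303 against SOX9_WT, and 0 to 2 in M228 against GFP. Over all genes, 92, 62 and 20 calls in M228, M303 and M379 against SOX9_WT became 21, 7 and 1 with libraries 2 and 3 only, and up to 320, 273 and 156 elsewhere. Limma could not be run for M379, whose normalized columns were not matched. Of the 3 members CXCR4 had the fewest reads, 6 to 165 a library.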
